A study of Homo sapiens with 12 samples.

Results

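The genes described here encode the proteins of the cytosolic ribosome. A probe set belonged to the set when its only annotated symbol began with RPL or RPS followed by a number, or was RPLP0, RPLP1, RPLP2 or RPSA. Kinases of the RPS6K type, paralogs with "-like" symbols and pseudogenes were left out. By this rule 53 of the 19775 genes measured were members, 21 of the small and 32 of the large subunit, and they were read by 112 of 54675 probe sets. Where a gene had several probe sets, the one brightest on average over the 12 arrays stood for it. The rule used no change between groups.

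The ribosome is built from ribosomal RNA and one set of proteins per subunit. The small subunit decodes the message, and the large subunit joins the amino acids. Messenger RNAs of ribosomal proteins are among the most abundant of a growing cell and belong to the TOP class, whose transcripts open with a cytosine and an unbroken run of pyrimidines at the 5′ end. Translation of TOP mRNAs is under the control of the kinase mTOR through the RNA-binding protein LARP1, which allows the cell to change ribosomal protein output without changing the amount of mRNA. An array reads the amount of mRNA only, and not its translation.

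RNA came from a U937-derived line. U937 is a human histiocytic lymphoma line with monocytic features, and PMA, a phorbol ester that activates protein kinase C, drives it toward a macrophage-like state. All 12 cultures carried a stably transduced TRIPZ Tet-On cassette, selected with puromycin, whose hairpin RNA against ZXDC1/2 is made when doxycycline is present, so every group, vehicle included, held the cassette; whether the line is a single cell clone is not given in the sources used here. The 4 groups of 3 biological replicates each were PMA with doxycycline, PMA alone, vehicle with doxycycline and vehicle alone, with PMA at 100 nM, vehicle as 0.1% DMSO and doxycycline at 0.5 µg/mL daily for 4 days. By the labels PMA or vehicle followed the first 2 days of doxycycline and lasted 3 days, times that do not add up to the 4 days of doxycycline, so whether doxycycline was present throughout is unclear. The comparisons ask which genes follow PMA, and which depend on doxycycline while they do. No group had doxycycline without the cassette, so the hairpin and doxycycline itself cannot be told apart.

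The values are RMA signals on the log2 scale, and a positive difference means higher signal in the group named first. Array medians lay between 5.16 and 5.22. Of the genes listed as myeloid, LYZ and ITGB2 averaged between 11.49 and 13.44 in each group, while the T cell gene CD3E and the B cell gene MS4A1 averaged at most 5.33. Of the 5 other-lineage genes measured 1 was called, PPBP, a platelet gene, which averaged 7.10 in PMA, against 2.97 in vehicle, and 6.41 in PMA with doxycycline, against 2.94 in vehicle with doxycycline. It read 3.96 on the PMA array numbered 1 and 3.65 on that of PMA with doxycycline, and 7.62 to 8.86 on the other 4 PMA arrays. HBB and GATA1, of the red cell lineage, averaged at most 6.27. MPO and SPI1, also listed as myeloid, averaged at most 5.62, and CD4 between 6.98 and 7.18. Of the 11 myeloid genes measured 7 were called in each PMA comparison, 3 up and 4 down. Over all genes 31.7% were called without doxycycline and 32.5% with it. CTSG averaged 9.34 in PMA against 13.24 in vehicle, and PRTN3 4.17 against 7.49. TYROBP averaged 12.21 in PMA against 8.63 in vehicle, and ITGB2 13.44 against 11.49. ZXDC, the hairpin target, read 7.39, 7.43 and 7.02 in PMA-treated cells with doxycycline, against 7.96, 7.89 and 7.51 without. In vehicle-treated cells it read 7.16, 7.25 and 7.44 with doxycycline, against 8.01, 7.63 and 7.69 without. The arrays did not overlap in either agent, but neither difference passed the test across all genes (-0.50, adjusted p = 0.613, and -0.49, adjusted p = 1; limma with Benjamini-Hochberg adjustment). Arrays numbered 1 stood apart in the ACTB control but not in that of GAPDH. The excess of the 3′ over the 5′ control probe set is a measure that grows with RNA degradation. For ACTB it was 2.72, 2.39, 2.40 and 1.99 on these 4 arrays, and between 0.71 and 1.64 on the other 8. For GAPDH it was 0.25, 0.18, 0.21 and 0.17 on these 4, and between 0.12 and 0.25 on the other 8.

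The start sites of the members are shown first, because they hold the feature that sets ribosomal protein mRNAs apart from most others. RefSeq promoter entries (build GRCh38.p14) matched 47 of the 53 genes, with 54 annotated starts. The first transcribed base was C at 38 of these starts (70.4%), against 14.7% of 35116 starts of all genes. A run of at least 5 pyrimidines opening with that C was found at 35 starts (64.8%), against 4.07% of all starts. By gene, 35 of 47 members (74.5%) had such a start, against 5.14% of all genes with an entry. Each line below gives the 15 bases before the annotated start and the first 15 transcribed bases, 5′ to 3′ on the gene's strand, with the pyrimidine run that opens with C at the start in capitals. They were chosen to show members among the lowest and the highest differences under PMA, and the member called. They also show the longest run, members without a run of 5 bases, RPS6, RPS27 and the paralog RPS27L. RPL37, at 0.13 under PMA with doxycycline, had no promoter entry.
RPL35 (chr9:124861943-124861972, minus strand): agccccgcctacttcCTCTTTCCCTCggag
RPS3 (chr11:75399503-75399532, plus strand): gcccgcgagccacttCCTTTCCTTTCagcg
RPL3 (chr22:39319609-39319638, minus strand): gtaaggccgaccggcCTCTaccggcgggat
RPS6 (chr9:19380222-19380251, minus strand): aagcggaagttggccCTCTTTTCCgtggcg
RPL24 (chr3:101686704-101686733, minus strand): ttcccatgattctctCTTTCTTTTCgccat
RPL31 (chr2:101002274-101002303, plus strand): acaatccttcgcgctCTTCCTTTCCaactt
RPL39 (chrX:119791616-119791645, minus strand): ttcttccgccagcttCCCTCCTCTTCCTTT
RPL36A (chrX:101390996-101391025, plus strand): tttgcctcgcggtttCTTTCTTTCCgcgcc
RPS27 (chr1:153990747-153990776, plus strand): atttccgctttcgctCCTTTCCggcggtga
RPS28 (chr19:8321481-8321510, plus strand): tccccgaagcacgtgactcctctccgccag
RPS27L (chr15:63157463-63157492, minus strand): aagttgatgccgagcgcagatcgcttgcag

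The runs of RPL35 and RPS3 are 11 bases long, those of RPL24, RPL31 and RPL36A 10 bases, that of RPS6 9 bases and that of RPS27 7 bases. The run of RPL39 is the longest among members, with 19 bases, and goes on past the bases printed. RPL3 has only 4 bases in the run, and the annotated start of RPS28 is not a C. The members with no annotated start of this kind were RPL3, RPL6, RPL9, RPL10A, RPL19, RPL27, RPL32, RPS4X, RPS7, RPS15, RPS28 and RPS29. An annotated start can lie some bases away from the one a cell uses, so a missing run says only that these letters do not open the annotated transcript. Of 6 paralogs with an entry 1 had the run, while of 12 other TOP genes 10 did.

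**Figure D1:**
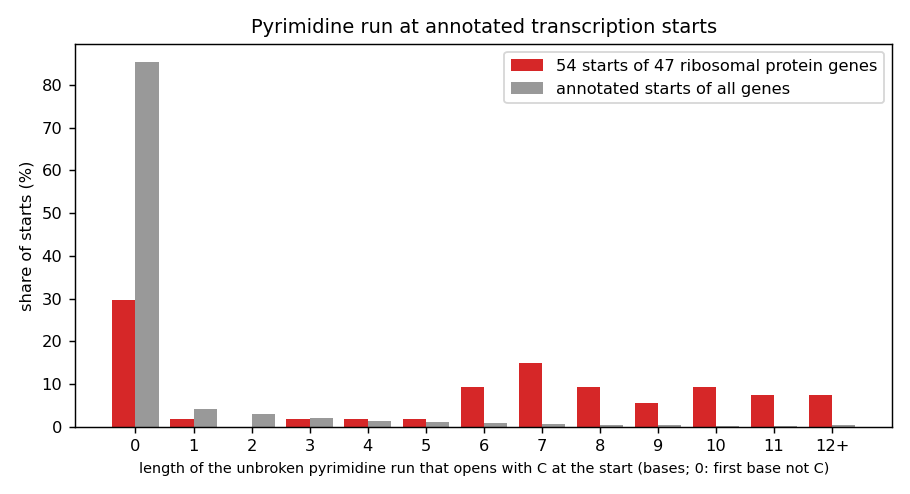
Length of the unbroken pyrimidine run that opens with C at the annotated start (x axis, bases, 0 where the first base is not C) against the share of starts (y axis, percent), for 54 starts of 47 ribosomal protein genes and 35116 starts of all genes. Of the members' starts 64.8% have 5 bases or more, against 4.07% of all starts.

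In the 300 bases from 250 before to 50 after each start, 4 short motifs were searched on both strands. CCGGAAG, the core recognised by ETS factors such as GABP, was found at 38.9% of the members' starts, against 10.3% of all starts. AAGATGG, a YY1 core, was found at 9.26% against 5.84%, and it can share the letters AAG with the first motif. The E-box CACGTG was found at 5.56% against 7.26%, and TATAAA, the TATA box, at 5.56% against 11.5%. A match is a description of the letters and not a binding site.

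The probe sets of 49 members averaged over 13 on the log2 scale, and 32 of them over 14. Over all genes 136 averaged over 13 and 45 over 14. The highest single values on the arrays lay between 14.67 and 14.88, so these members sat just under the top of the scale. The highest means were those of the probe sets for RPL41 at 14.65, RPS18 at 14.58 and RPL37A at 14.52, as a position on the scale and not as an order of transcript levels. The 4 other members were read by dim probe sets: RPL27A averaged 8.17, RPLP2 6.41, RPL36A 5.16 and RPS4Y1 4.54. Of the 53 probe sets 15 carried the suffix _x_at and 27 the suffix _s_at, which mark probes shared with other transcripts or between transcripts of a family.

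With PMA the signals of the ribosomal protein genes stayed close to their vehicle level while a large share of all genes moved. Without doxycycline 1 of 53 members was called, RPL36A, and it rose; 31.7% of all genes were called, 12.7% up and 18.9% down. With doxycycline the same single gene was called up, against 32.5% of all genes, 13% up and 19.5% down. The median difference of the members was -0.04 without doxycycline, beside 0.01 over all genes, and -0.01 with it, beside -0.01 over all genes. Even at an unadjusted p under 0.05 only 1 of 53 members passed in each comparison, where 38.6% and 39.2% of all genes did. The 2 PMA comparisons share no array, but arrays numbered 1 with and without doxycycline deviated together from their groups (r 0.64 in PMA-treated and 0.57 in vehicle-treated cells). The comparisons need not be independent. RNA was taken from whole cultures, so fewer cells of a kind and less RNA per cell cannot be told apart, and RMA values are relative to each array's own distribution.

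Of the 49 bright members none was called, and their array signals differed little between groups. Of the 87 other genes that averaged over 13, 37 (42.5%) were called without doxycycline, 19 up and 18 down. With doxycycline 40 (46%) were called, 17 up and 23 down. The differences of these other genes ran from -1.33 to 2.46 and from -1.47 to 2.16. Whether the top of the scale narrows differences in mRNA was not tested. The bright members' differences ran from -0.24 to 0.08 without doxycycline and from -0.24 to 0.13 with it. All 49 lay within 0.25 of 0 in both comparisons, and 38 lay within 0.1 in each. The 95% intervals of the 49 lay between -0.48 and 0.30 without doxycycline, and between -0.47 and 0.33 with it. The standard errors were 0.09 to 0.13. They rest on a spread that limma moderates toward all genes, and the members' own replicates varied by a median SD of 0.06 in PMA with doxycycline, 0.09 in PMA, 0.03 in vehicle with doxycycline and 0.04 in vehicle. With the spread of each gene taken alone, an alternative chosen after seeing the data, RPL7 and RPL9 fell without doxycycline (-0.10 each) and RPL39 rose with it (0.11), where 28.8% and 29.8% of all genes were called. A missing call therefore does not show that a member did not differ.

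**Figure D2:**
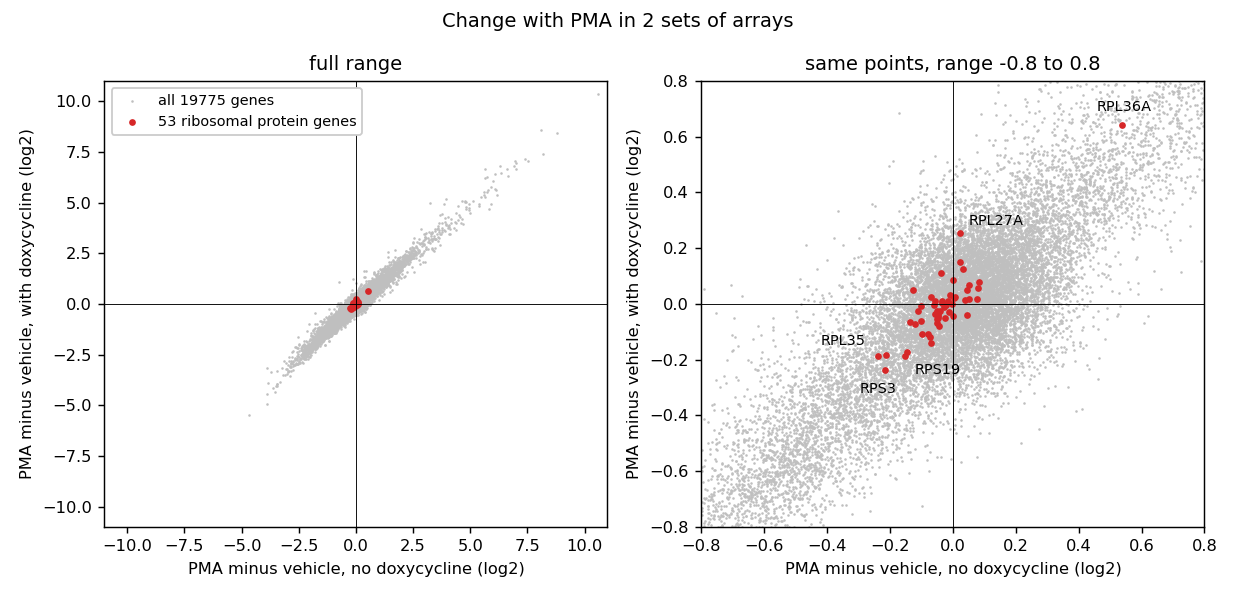
PMA minus vehicle on the log2 scale without doxycycline (x axis) against the same difference with doxycycline (y axis), for 53 ribosomal protein genes over all 19775 genes, at full range on the left and from -0.8 to 0.8 on the right. Except for RPL36A at 0.54 and 0.64 and RPL27A at 0.02 and 0.26, the members lie within 0.25 of 0 on both axes.

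Among the small subunit proteins, 0 of 21 members were called in either PMA comparison, and their median differences were -0.04 without and -0.03 with doxycycline. RPS3, a protein at the mRNA entry channel that also takes part in DNA repair, had the lowest difference of these members in both comparisons. Without doxycycline it read 13.68, 13.35 and 13.50 on the PMA arrays, against 13.79, 13.74 and 13.64 on the vehicle arrays. The groups overlapped through the PMA array numbered 1. The difference was -0.22 (SE 0.11, adjusted p = 0.169 in limma). With doxycycline it read 13.60, 13.41 and 13.38 on the PMA arrays, against 13.70, 13.72 and 13.67 on the vehicle arrays, without overlap, and the difference was -0.24 (SE 0.11, adjusted p = 0.13 in limma). A variance model that lets the spread follow the signal called RPS3 in the comparison with doxycycline (limma, adjusted p = 0.0492).

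RPS19, the small subunit protein most often mutated in Diamond-Blackfan anaemia, read 14.43, 14.29 and 14.35 on the PMA arrays without doxycycline, against 14.56, 14.44 and 14.50 on the vehicle arrays. With doxycycline it read 14.46, 14.24 and 14.32 on the PMA arrays, against 14.56, 14.49 and 14.49 on the vehicle arrays. Every PMA array lay under every vehicle array in both, yet neither difference passed (-0.14 and -0.17, limma adjusted p = 0.323 and 0.222). RPS6, the substrate of the S6 kinases, lay close to 0 in both comparisons (-0.03 and -0.01). It read 14.38, 14.22 and 14.22 in PMA, against 14.33, 14.26 and 14.31 in vehicle, and the groups overlapped. RPS4X, the X-linked copy of its protein, differed by 0.05 and 0.02.

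Among the large subunit proteins, 1 of 32 members was called in each PMA comparison, and the median differences were -0.04 without and -0.01 with doxycycline. RPL35, a protein near the exit of the peptide tunnel, read 13.53, 13.27 and 13.34 on the PMA arrays without doxycycline, against 13.66, 13.66 and 13.53 on the vehicle arrays. The PMA array numbered 1 equalled the lowest vehicle array to 2 decimals, and the difference was -0.24 (SE 0.11, limma adjusted p = 0.135). With doxycycline it was -0.19. RPL3, a protein near the peptidyl transferase centre, read 13.70, 13.41 and 13.62 on the PMA arrays without doxycycline, against 13.86, 13.71 and 13.80 on the vehicle arrays. Its PMA arrays lay under the vehicle arrays in both comparisons, and the differences of -0.21 and -0.18 did not pass (limma adjusted p = 0.162 and 0.235). RPL19 differed by -0.15 and -0.19.

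At the other end, RPL24 differed by 0.08 in both comparisons and RPL31 by 0.08 and 0.06. RPL39, whose start holds the longest pyrimidine run, differed by -0.04 without and 0.11 with doxycycline, and RPL37 by 0.03 and 0.13. RPL11, which binds MDM2 together with the 5S ribosomal RNA when ribosome assembly fails, differed by -0.05 and -0.03. RPL22, which binds RNA and is not needed for basic translation, differed by -0.05 and -0.07 on its brightest probe set. The stalk proteins, which recruit elongation factors to the large subunit, were RPLP1 with 0.04 and 0.05 and RPLP2, on a dim probe set, with 0.02 and 0.15. Of 10 genes listed for Diamond-Blackfan anaemia 6 were members here, 0 were called, and their median differences were -0.05 and -0.01.

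RPL36A was the single member called. It encodes a large subunit protein near the exit site for transfer RNA. It read 5.49, 5.28 and 5.61 on the PMA arrays without doxycycline, against 4.79, 4.91 and 5.06 on the vehicle arrays. With doxycycline it read 5.65, 5.25 and 5.45 on the PMA arrays, against 4.73, 4.96 and 4.72 on the vehicle arrays. No arrays overlapped, and it rose by 0.54 (95% interval 0.25 to 0.82, limma adjusted p = 0.00587) and by 0.64 (0.36 to 0.93, adjusted p = 0.0016). This probe set is the only single-gene probe set of RPL36A and is dim, below the median of 6.12 over all gene means, so the call rests on a signal in the lower part of the scale. RPL36A is also named on ribosomal probe sets with several symbols, which were not read by gene. The rise is therefore that of this probe set alone. RPL36A stayed called in all other settings that kept it.

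**Figure D3:**
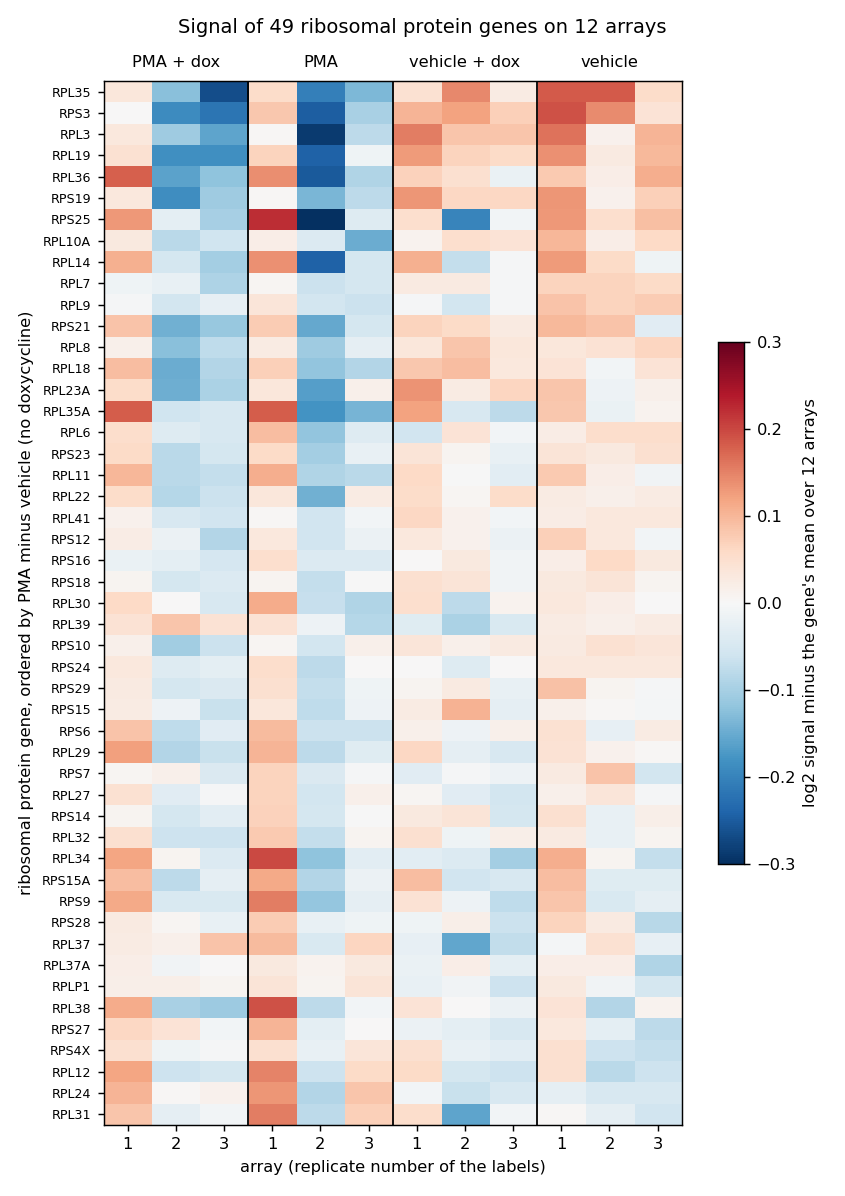
Log2 signal of the 49 ribosomal protein genes that averaged over 13, each minus its own mean over 12 arrays (colour), by array (x axis, replicate number of the labels within the 4 groups) and gene (y axis, ordered by PMA minus vehicle without doxycycline). Arrays numbered 1 are the reddest column of most groups, and RPL35, RPS3 and RPL3 at the top differ by -0.24, -0.22 and -0.21.

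No bright member was called, and most had the same sign in both comparisons. Without doxycycline 38 of 49 bright members lay below 0 and 11 above, and with it 30 below and 19 above. In 39 of 49 the sign was the same in both, 29 below and 10 above. Across these 49 genes Pearson's r between the comparisons was 0.76 and Spearman's rho 0.71, given as a description over genes that share arrays within each comparison, scale and probe chemistry. Arrays of the same number with and without doxycycline also deviated together. Shifting each array to the median of the bright genes outside the set moved the members' median with doxycycline to 0.05, so the side of 0 on which the bulk of the members fell depended on the scaling.

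Member by member, arrays of the compared groups did not overlap in 9 of 53 genes (17%) without doxycycline, 1 higher and 8 lower in PMA, against 41.8% of all genes, 18.8% higher and 23% lower. The lower ones were RPL10A, RPL3, RPL41, RPL7, RPL8, RPL9, RPS10 and RPS19. With doxycycline 13 of 53 (24.5%) did not overlap, 6 higher and 7 lower in PMA, against 42.5% of all genes, 18.1% higher and 24.4% lower. RPL3, RPL7, RPL8 and RPS19 lay lower without overlap in both, and RPL36A higher.

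The arrays numbered 1 also stood apart in the bright members, in all 4 groups. The mean deviation of the bright members from their own 12-array means was highest on the array numbered 1 in each group. In PMA with doxycycline it was 0.056, against -0.059 and -0.062 on the other 2. In PMA it was 0.078, against -0.101 and -0.027. In vehicle with doxycycline it was 0.039, against -0.001 and -0.012, and in vehicle 0.062, against 0.018 and 0.009. The array numbered 1 was the highest of its group for 45, 47, 33 and 35 of 49 members, in that order of groups. These are the arrays with the larger ACTB excess, which the GAPDH control did not share. The part of RNA quality in the members' values was not tested. On arrays numbered 2 and 3 alone the calls were the same count, 1 up and 0 down in each PMA comparison, and the median differences were -0.06 without and -0.05 with doxycycline.

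Dimmer probe sets of the same genes gave other values than the bright ones. Of the 112 member probe sets 67 averaged over 13, and 0 of these were called in either PMA comparison, with differences from -0.24 to 0.13. Of the 42 that averaged under 10, 6 were called in each comparison. Over all 112, 6 were called without doxycycline, 2 up and 4 down, where 23.5% of all probe sets were called, 10.4% up and 13.2% down. With doxycycline 7 were called, 3 up and 4 down, where 24.5% were, 10.7% up and 13.8% down.

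RPS15A, a small subunit protein, had probe sets that disagreed in direction. Its brightest one read 14.34, 14.14 and 14.21 on the PMA arrays without doxycycline, against 14.32, 14.19 and 14.19 on the vehicle arrays, with no difference (0.00 in both comparisons). Probe set 235309_at read 6.62, 6.30 and 5.92 on the PMA arrays, against 7.30, 7.22 and 7.39 on the vehicle arrays, and fell without doxycycline (-1.02, limma adjusted p = 0.000577) and with it (-1.11, adjusted p = 0.00026). Probe set 229882_at rose by 0.47 with doxycycline (limma adjusted p = 0.0047). All 3 probe sets carry the RPS15A symbol alone in the annotation.

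In RPS28, RPS29 and RPS27 the size of the difference depended on the probe set. The dim probe set 208903_at of RPS28 fell (-0.48 and -0.47), where the brightest differed by 0.01 and 0.02. Probe set 238824_at of RPS29 fell (-0.45 and -0.60), where the brightest differed by -0.04 and -0.03. Probe set 236621_at of RPS27 rose by 0.78 without doxycycline and was not called with it, where the brightest differed by 0.05 and 0.07. For RPL22 a probe set of middle signal, 221726_at, read 11.52, 11.09 and 10.95 in PMA with doxycycline, against 11.77, 11.62 and 11.61 in vehicle with doxycycline, and fell by 0.48 (limma adjusted p = 0.0452). Dim probe sets of RPL37 (-0.91, without doxycycline) and RPL35A (0.53, with it) were also called.

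**Figure D4:**
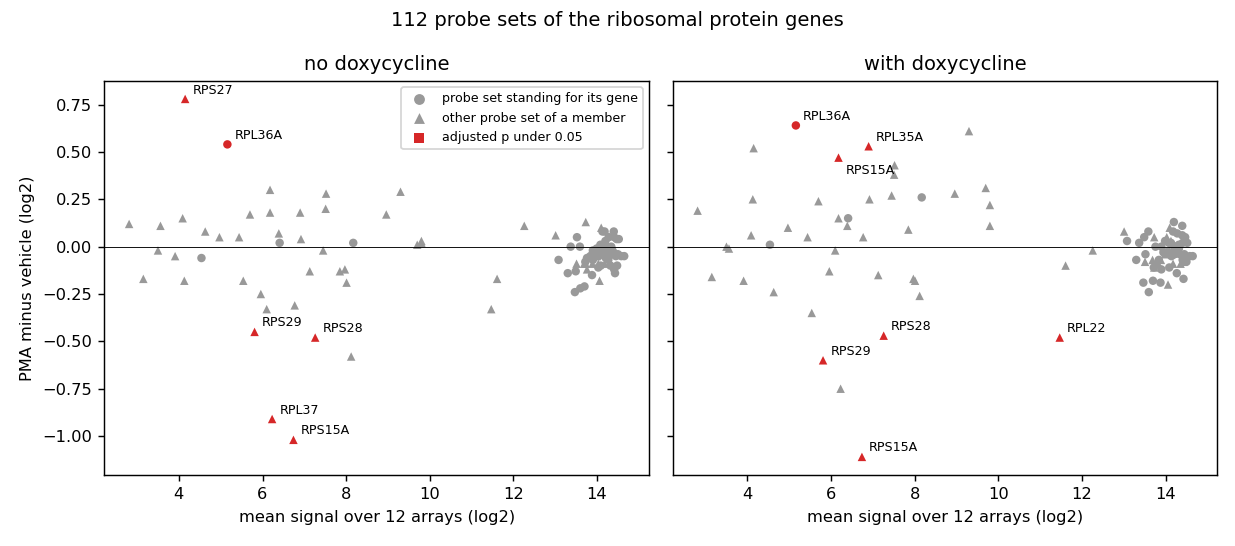
PMA minus vehicle (y axis, log2) against mean signal over 12 arrays (x axis, log2) for the 112 probe sets of the 53 genes, without doxycycline on the left and with it on the right; red marks an adjusted p under 0.05. The called probe sets lie under a signal of 13, and the 67 brighter ones stay between -0.24 and 0.13.

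With doxycycline, given to induce the hairpin, no member was called in limma's test. In PMA-treated cells 0 of 53 were called, against 0.00506% of all genes (1 gene), and in vehicle-treated cells 0 of 53, against 0%. No member reached an unadjusted p under 0.05 in either, while 6.14% and 2.58% of all genes did. These tests too rest on a spread that limma moderates toward all genes, so a missing call does not show that a member did not differ. The bright members differed by -0.07 to 0.07 in PMA-treated and by -0.14 to 0.04 in vehicle-treated cells, with 95% intervals between -0.30 and 0.33 and between -0.42 and 0.26. Median differences were -0.01 and -0.02.

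In PMA-treated cells the smallest p was that of RPL39, which read 14.44, 14.48 and 14.44 with doxycycline, against 14.44, 14.38 and 14.31 without (difference 0.07, limma adjusted p = 0.945). The next were RPL27A at 0.20 and RPL38 at -0.07. In vehicle-treated cells it was RPS25, which read 13.54, 13.29 and 13.48 with doxycycline, against 13.62, 13.54 and 13.58 without (difference -0.14, limma adjusted p = 1), followed by RPL9 and RPL37 at -0.09 each. The arrays overlapped for RPL39 and RPS25. Arrays with and without doxycycline did not overlap for 0 of 53 members in PMA-treated cells, against 10.7% of all genes, and for 5 (9.43%) in vehicle-treated cells, against 8.56%, namely RPL37, RPL39, RPL7, RPL9 and RPS24, each lower with doxycycline, as were 3.47% of all genes. The interaction, the difference of the doxycycline effects, was called for 0 of 53 members and 0% of all genes, and at an unadjusted p under 0.05 for 0 of 53 and 2.62%, with the smallest p at RPL39 (0.15), RPS25 (0.18) and RPL9 (0.09).

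The related lists were read against the same shares over all genes, 12.7% up and 18.9% down without doxycycline and 13% up and 19.5% down with it. Of 8 "-like" paralogs 1 rose and 2 fell without doxycycline, and 2 rose and 3 fell with it, where 31.7% and 32.5% of all genes were called; without the PMA array numbered 1 the first count was 2 up and 3 down. RPL39L, a germline-enriched paralog, read 6.85, 6.69 and 6.84 in PMA, against 8.50, 8.64 and 8.62 in vehicle, and fell (-1.79 and -1.70, limma adjusted p = 1.55e-08 and 2.36e-08). RPS27L, a p53-responsive paralog whose start has no pyrimidine run, read 13.09, 13.05 and 13.02 in PMA with doxycycline, against 12.61, 12.55 and 12.58 in vehicle with doxycycline, and rose without and with doxycycline by 0.55 and 0.47. Its call was lost when probe sets with the suffixes _x_at and _s_at were left out (0.40 and 0.14, limma adjusted p = 0.0989 and 0.637). RPL26L1 fell (-0.45 and -0.40); with doxycycline its call was lost without the PMA array with doxycycline numbered 2 (-0.36, limma adjusted p = 0.0533). RPL10L rose by 0.40 with doxycycline, a call lost when the PMA array with doxycycline numbered 1 or 2, or the vehicle array with doxycycline numbered 2, was left out (0.28 to 0.41, limma adjusted p up to 0.121).

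Of 9 dedicated chaperones, which escort new ribosomal proteins to the nucleus and into the ribosome, 6 fell and 0 rose without doxycycline, where 18.9% of all genes fell, and 5 fell and 0 rose with it, where 19.5% fell; the medians were -0.56 in both. All 9 chaperones were among the genes left when dim ones, under the median gene mean, were removed. Of those genes 56.6% and 57.9% were called without and with doxycycline, and 39.6% and 39.5% of the calls were up. With the replicate number as a block 1 chaperone was called up in each comparison, where 35.4% and 36.2% of all genes were called. With doxycycline 1 was also called up with the mean of all probe sets, and 1 up and 8 down on arrays numbered 2 and 3 alone. In these 2 settings 31.6% and 35.4% of all genes were called. PDCD2L, a relative of the RPS2 chaperone PDCD2, read 7.94, 7.50 and 7.60 in PMA, against 8.64, 8.97 and 8.92 in vehicle, and fell (-1.17 and -1.35). BCCIP, a chaperone of RPL23, fell (-1.01 and -1.05). With single arrays left out, 4 to 6 chaperones fell without doxycycline and 5 or 6 with it.

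Among the growth signalling genes, 14 in all, 1 rose and 5 fell without doxycycline, where 12.7% of all genes rose and 18.9% fell, and 1 rose and 7 fell with it, where 13% rose and 19.5% fell. All 14 were also among the genes left without dim ones, of which 56.6% and 57.9% were called without and with doxycycline. MYC had the lowest differences of the list (-1.54 and -1.72). It read 10.52, 10.08 and 9.92 in PMA, against 11.29, 11.70 and 12.15 in vehicle. LARP1, the protein that holds TOP mRNAs, read 11.03, 10.88 and 10.68 in PMA, against 11.52, 11.58 and 11.70 in vehicle, and fell (-0.73 and -0.76). EIF4EBP1, a translation inhibitor switched off by mTOR, fell (-0.93 and -1.13). TSC1, which restrains mTOR, rose by 0.50 and 0.55; its calls were lost without the PMA or the vehicle array numbered 2 (0.48 and 0.37, limma adjusted p = 0.0514 and 0.0945) and without the vehicle array with doxycycline numbered 2 (0.41, adjusted p = 0.0517).

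Of 16 other measured TOP mRNAs 1 rose and 2 fell in each comparison, where 31.7% and 32.5% of all genes were called. With the mean of all probe sets of a gene 7 fell without doxycycline and 4 with it, where 31% and 31.6% of all genes were called. With the replicate number as a block 4 and 3 fell, where 35.4% and 36.2% were called. With _x_at probe sets left out 0 fell in both, where 31.7% and 32.3% were called. VIM, the intermediate filament gene vimentin, rose by 2.46 and 1.81. HNRNPA1, a splicing factor, fell (-0.79 without doxycycline and -1 with it), and PABPC1, the poly(A)-binding protein, fell (-0.40 and -0.38). Both of these fall calls were lost when _x_at probe sets were left out: HNRNPA1 was then at -0.35 and -0.31 and PABPC1 at -0.17 and -0.19. The count of falls without doxycycline was 4 without the PMA array numbered 1, and 1 without the PMA array numbered 3 or any single vehicle array. With doxycycline it was 1 when the PMA array with doxycycline numbered 2 or 3, any vehicle array with doxycycline, or the vehicle array numbered 2 or 3 was left out. FAU, which encodes RPS30 fused to a ubiquitin-like protein and lies outside the symbol rule, differed by -0.15 in both comparisons and was not called. Each list was chosen with earlier results of these data known.

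**Figure D5:**
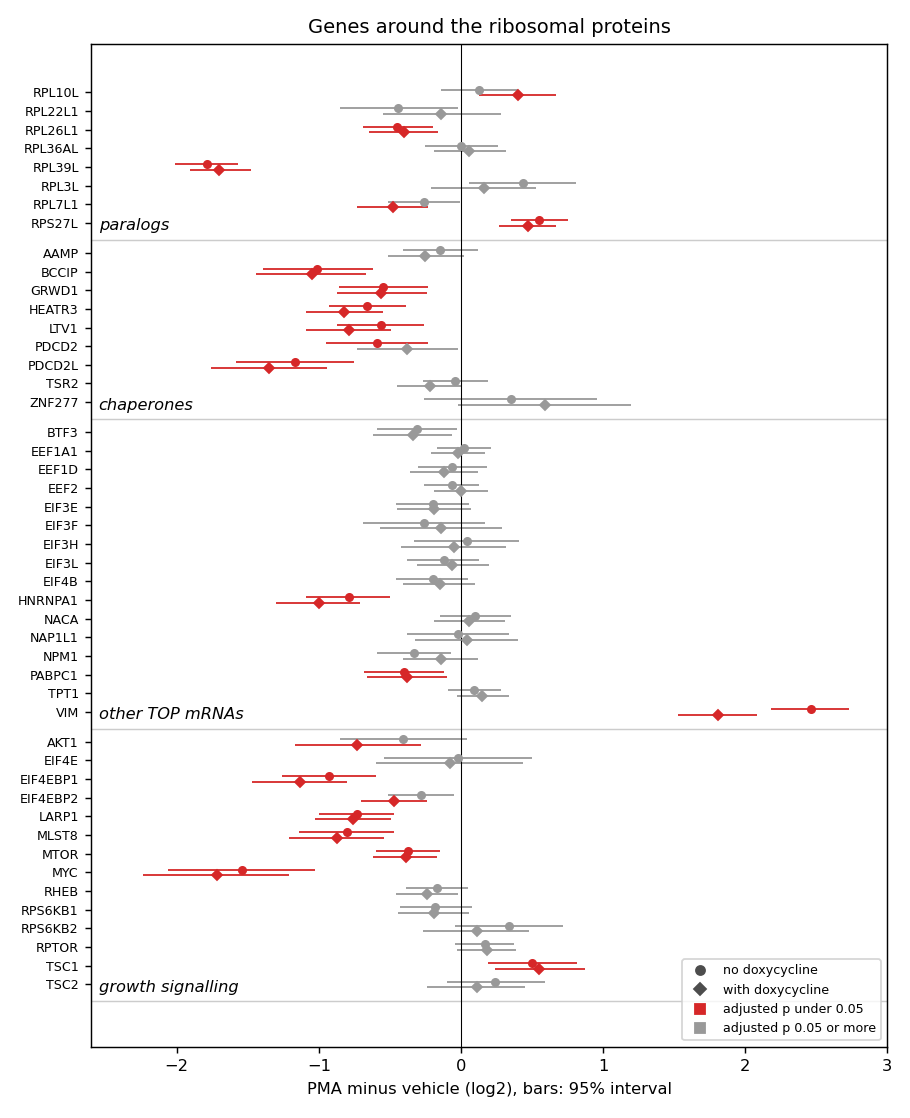
PMA minus vehicle (x axis, log2, bars: 95% interval) for the measured genes of 4 lists (y axis), without doxycycline (circles) and with it (diamonds); red marks an adjusted p under 0.05. RPL39L lies at -1.79 and -1.70, most chaperones lie below 0, and VIM stands alone above 1.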

How the data were processed

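RNA of 12 U937-derived cultures (100 ng each) was labelled with a 3′ IVT kit and hybridised to Affymetrix HG-U133 Plus 2.0 arrays, per the labels. The deposited values are log2 signals made by the authors with RMA, per the submitters' processing notes (version not given in the sources used here), and no scaling was added. Symbols came from GEO's platform annotation: 41097 probe sets pair with 1 gene, 1801 with several (64 of them ribosomal, 22 symbols) and 11721 with none in the table used, besides 62 controls. Probe sets with several genes name no member, and RPLP0, RPSA, RPL5, RPS27A and RPL13A among others are not analysed here. A model with 4 group means was fitted to the 12 arrays in R 4.3.3 with limma 3.58.1 (lmFit, eBayes; 8 residual and 5.6 prior degrees of freedom), two-sided, with Benjamini-Hochberg adjustment over 19775 genes or 54675 probe sets. A gene was called at an adjusted p under 0.05. Named genes were the called members, the 3 with the smallest p where none was called, fixed members of known role, the brightest 3 and dimmest members and up to 4 genes per other list. RPS3, RPL35, RPL3, RPL19, RPL24, RPL31, RPL37 and RPL39 in the PMA comparisons were picked with values in view. So were MYC, the lineage markers named, the genes with array groups that do not overlap and the dim probe sets. The members and lists were chosen with earlier results of these data known. Same-numbered arrays with and without doxycycline deviated together (r 0.64, 0.29 and 0.32 in PMA, 0.57, 0.25 and 0.31 in vehicle), above the limit of 0.1 for a pair. Arrays numbered 2 and 3 also did so across numbers (0.30 and 0.39 in PMA, 0.12 and 0.24 in vehicle). The values therefore set arrays numbered 1 apart and do not show pairs among the others. The main model used no pairs, and blocks by replicate were alternatives. Across agents r of same-numbered arrays was 0.20, 0.07 and 0.06 with doxycycline, and 0.16, -0.01 and 0.15 without. The procedure was tested on simulated data. The 3 arrays per group limit the precision. Alternatives were other probe sets per gene, scalings, spread models, blocks and arrays left out. Start sites came from RefSeq (GRCh38.p14).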

Additional observations from a re-analysis of the deposited data

How the results depend on the processing

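Under 25 alternatives the call of RPL36A was kept wherever it was tested, and the counts of called members moved as follows. Members called up without doxycycline numbered 2 with the mean of all probe sets of a gene, 2 of 31 without _x_at and _s_at probe sets, and 0 of 51 when dim genes were left out, which removes RPL36A. With doxycycline they numbered 0 of 51 without dim genes, and 2 when the spread was not moderated, an alternative chosen after seeing the data. Members called down without doxycycline numbered 2 without _x_at and _s_at probe sets and 2 without moderation (RPL7 and RPL9); with doxycycline they numbered 1 under an intensity trend, 1 with the mean of probe sets and 3 without _x_at and _s_at probe sets. RPL22 (-0.48) and RPS3 (-0.24) then passed. With the mean of probe sets 31% of all genes were called in either direction without doxycycline and 31.6% with it. Without _x_at and _s_at probe sets the shares were 27.7% and 28.7%, and without dim genes 56.6% and 57.9%. Without moderation they were 28.8% and 29.8%, and under an intensity trend with doxycycline 32.4%. The members' median with doxycycline was 0.05 with bright genes centred. The cause of these moves was not tested. Leaving out each array in turn gave 1 call up and 0 down in each PMA comparison, 0 for doxycycline, and medians from -0.07 to 0.00 without and -0.05 to 0.00 with doxycycline. With the replicate block for each pair, the doxycycline comparisons gave 0 members called. With the replicate number as a block the PMA comparisons gave 1 up and 0 down, so neither block changed the call of a member. Most members' signals lay near the top of the scale, and whether this narrows their differences was not tested. Probes shared within a family cannot tell a member from near-identical copies.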

Other observations

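Ribosomal probe sets that carry several symbols, 64 in all, name no gene here. Of the 44 that averaged over 13, 0 were called without doxycycline and 1 with it, with differences from -0.26 to 0.23 and from -0.28 to 0.31. Over all 64, 6 were called without doxycycline, 2 up and 4 down, and 8 with it, 4 up and 4 down, where 23.5% and 24.5% of all probe sets were called. Of the 3 between 10 and 13, 2 were called down in each comparison. The 17 that averaged under 10 ranged from -1.03 to 1.13 without doxycycline and from -1.03 to 1.20 with it.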
